A study of Mus musculus with 18 samples.

Results

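Chemokines, interleukins and their receptors were followed across 18 mouse lung tumours in which p53 either had or had not been restored. Genes were chosen by name alone: every gene called Ccl, Ccr, Cxcl or Cxcr with a number, or Il with a number and a suffix, that had a probe set of its own on the array. This gave 109 genes with 150 probe sets, out of 12393 genes with 20380 probe sets in all. Where a gene had several probe sets, the one with the highest average signal stood for it. Of the 109 genes, 38 exceeded their array's median on 4 or more of the 18 arrays and were tested together with all 7300 genes that met this condition. The other 71 are called silent here, and statements on the 38 tested genes do not hold for all 109.

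The tumours were microdissected from 6 mice of the strain C57/B6-129SvJae at 10 weeks of age. Treated mice received tamoxifen into the peritoneum in 2 injections, and their tumours, described as p53 restored, were taken 7 days after the first. The groups were 6 treated grade 3 tumours (adenocarcinomas), 4 treated grade 2 tumours (adenomas), 4 untreated grade 3 tumours and 4 untreated grade 2 tumours. The labels do not name the alleles that start the tumours or make p53 restorable. The female mouse 8688 gave all treated tumours but 1, namely 6 of grade 3 and 3 of grade 2. The remaining treated tumour, 8639T4 of grade 2, came from a male. The 8 untreated tumours came from the males 8565, 8584, 8629 and 8700. In grade 3, treatment therefore cannot be told apart from mouse and sex, and p-values over tumours of so few mice are too small.

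Chemokines are small secreted proteins that draw leukocytes along a gradient, and each binds 1 or more receptors that couple to G proteins. Interleukins signal between cells through receptor chains that are often shared, such as gp130. IL-1 beta is the best known alarm signal of this family. It acts through the IL-1 type 1 receptor and is held in check by a secreted antagonist that occupies the same receptor. In lung, macrophages and alveolar epithelium both make many of these factors, so a microdissected tumour holds several sources of them.

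Values are log2 signals as deposited, on arrays whose medians lay between 6.05 and 6.18, and a difference of 1 is a doubling of signal. The level of a probe set was not set against that of another as an amount of transcript. In bulk tissue, fewer cells of a type and less RNA per cell cannot be told apart. The number of arrays limits the precision. The 3' minus 5' signal of Gapdh and beta-actin, a sign of RNA quality, was 2.62 in 8688T3 and 1.85 in 8639T4, against 0.62 to 1.05 in the other tumours. Lung epithelium was present by its markers: Sftpc, surfactant protein C, had a log2 signal of 12.31 or more in every tumour.

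Most named cytokines gave little signal. Of the 71 silent genes, 61 did not exceed the array median in any tumour. The share tested was largest for CXC chemokines, with 10 of 12. It was 8 of 17 for CC chemokines, 3 of 14 for CC and CXC receptors, and 7 of 18 for the IL-1 family with its receptors and inhibitors. It was 2 of 24 for other interleukins and 8 of 24 for other interleukin receptor chains. Over all genes 58.9% were tested, against 34.9% of these 109.

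**Figure D1:**
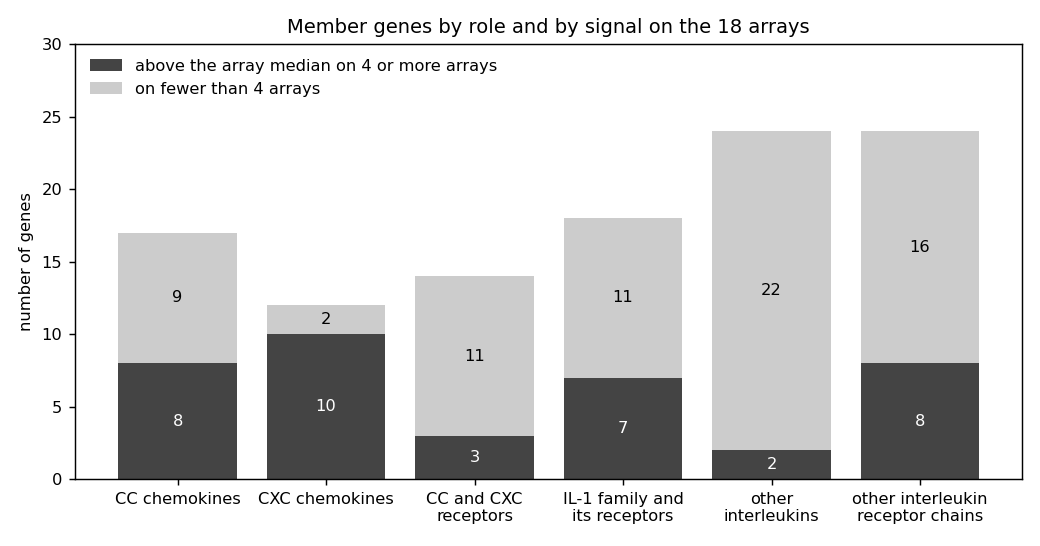
Bars give the number of genes in each role, split into those above the array median on 4 or more of the 18 arrays (dark) and those on fewer (light). CXC chemokines were mostly measured (10 of 12), and other interleukins mostly silent (22 of 24).

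Silent in every tumour were the CC chemokines Ccl1, Ccl2, Ccl4, Ccl7, Ccl11, Ccl20, Ccl24, Ccl25 and Ccl28 and the CXC chemokine Cxcl11. The receptors were Ccr3, Ccr4, Ccr6, Ccr7, Ccr8, Ccr10, Cxcr2, Cxcr3 and Cxcr5. Of the IL-1 family they were Il1f5, Il1f6, Il1f8, Il1f9, Il1f10, Il1rapl2, Il1rl2, Il18bp and Il18rap. Cytokines of helper T cells were among them, with Il2, Il3, Il4, Il5, Il9, Il10, Il13, Il17a and Il21, as were Il11, Il12a, Il12b, Il16, Il17b, Il17d, Il20, Il23a, Il24 and Il25. Il4i1, which encodes an enzyme and entered by its name, was silent too and is counted with other interleukins. The chains were Il10ra, Il12rb1, Il12rb2, Il13ra2, Il15ra, Il17rb, Il17rc, Il17rd, Il2rb, Il5ra, Il9r, Il21r and Il31ra. Their highest signal in any tumour was 6.07.

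The other 10 silent genes exceeded the median in 1 or 2 tumours each. Il6, the acute inflammatory cytokine, had a signal of 7.11 in 8688T9 (treated grade 2), against a median of 2.93 over the 18 tumours. Il1r2, a decoy receptor for IL-1, exceeded the median in 8688T9 alone. Cxcl5, a neutrophil attractant, reached up to 8.28 and was above the median in 8565T1 and 8629T12, both untreated grade 3. Il1a was above it in 8584T3 and 8629T12, Cxcr6 in 8565T1 and 8565T4, and Il7 in 8688T1 and 8688T10. Ccr9 and Il2ra were above it in 8584T3, Il27ra in 8565T1 and Il3ra in 8688T1.

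Of the 38 tested genes, 24 lay above the median on all 18 arrays. Their ranges over the tumours were wide, with a median of 1.84 log2 units, against 0.93 over all genes tested. Ccl6, a mouse chemokine of macrophages, varied least of the 38, by 0.53. It had 12.44, 12.62 and 12.72 as lowest, median and highest signal in treated grade 3 tumours and 12.56, 12.67, 12.62 and 12.69 in treated grade 2. It had 12.47, 12.49, 12.48 and 12.65 in untreated grade 3 and 12.69, 12.47, 12.53 and 12.19 in untreated grade 2. The groups overlapped throughout. A second probe set of Ccl6 was also above the array median on all 18 arrays. Its plain group means, treated minus untreated, differed by 0.26 in grade 3 and -0.35 in grade 2. The probe set used gave 0.08 and 0.17. Cxcl15, or lungkine, a chemokine of lung epithelium, averaged 12.66 ± 0.18 in the treated grade 3 tumours (SD, n = 6). Treated grade 2 tumours averaged 12.53 ± 0.16 (SD, n = 4). The means were 12.41 ± 0.32 in untreated grade 3 and 12.84 ± 0.18 in untreated grade 2 (SD, n = 4 each). Cxcr4, the receptor of Cxcl12, ranged from 9.62 to 10.47. Il6st, which encodes gp130, averaged 10.03 ± 0.11 over the 6 treated grade 3 tumours, against 9.86 ± 0.35 over the 4 untreated ones of that grade (SD).

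The first question was how restored p53 goes with these genes in grade 3 tumours. None of the 38 passed limma with Benjamini-Hochberg adjustment over all genes at a threshold of 0.05, where 0.466% of all genes passed. At an unadjusted p under 0.05 there were 8 (1 higher and 7 lower), or 21.1%, against 8.84% of all genes. Cxcl2, 1 of the 7 lower, met the signal condition only in 8584T3, 8565T1 and 8629T12, all of untreated grade 3, and in 8688T9. It was thus tested largely through the group in which it is higher. The groups did not overlap for 5 genes that were lower in treated tumours, 13.2% of the 38 against 2.08% of all genes. None was higher without overlap, against 2.84% of all genes. The median fitted difference was -0.28 over the 38 and 0.04 over all genes. Below 0 lay 22 of the 38, against 3146 of all 7300 genes tested. Those 5 genes were Il1rn, Ccl9, Il1r1, Ccl17 and Il1b, and each passed the signal condition on at least 14 arrays.

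Il1r1, which encodes the signalling receptor of IL-1, separated treated from untreated tumours in both grades. In grade 3 its lowest, median and highest signals were 8.58, 8.89 and 8.95 in treated tumours, against values of 9.83, 9.28, 9.17 and 9.27 in untreated tumours. The fitted difference was -0.62 (SE 0.18), and its limma adjusted p of 0.151 was above the threshold. In grade 2, Il1r1 had 8.81, 8.68, 8.78 and 9.06 in treated tumours, against 10.05, 10.14, 9.55 and 9.90 in untreated tumours. Here it fell by 1.09 (SE 0.18, limma adjusted p = 0.0215), or 2.13-fold, the only call among these genes in the 5 comparisons. The highest of all 10 treated tumours was 9.06 and the lowest of all 8 untreated tumours 9.17. Over all genes tested, 0.151% were lower in every treated than in every untreated tumour, and 0.205% higher. No other of the 38 genes separated the tumours in this way.

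The call for Il1r1 in grade 2 was lost with sex as a covariate (adjusted p = 0.184), with 1 mean per mouse and group (adjusted p = 0.984), and without mouse 8565 (0.138) or 8700 (0.252). It was also lost without any 1 of 8688T8, 8688T9, 8700T1, 8700T3 or 8565T4, with limma adjusted p from 0.0573 to 0.188. The same held without 8688T3 and 8639T4 together, the tumours with the highest 3′ minus 5′ signal. The difference kept between -0.93 and -1.30 in all 35 alternatives. The treated male tumour, 8639T4, had 8.78, below all 8 untreated male tumours. The sex term rests on this tumour against those of mouse 8688 in treated grade 2, as each other group held 1 sex. Fibroblast markers moved with this gene in grade 2: the mean of 11 of the 12 listed markers ran from 9.39 to 9.51 in treated and from 9.71 to 10.35 in untreated tumours. In grade 3 it ran from 9.40 to 9.88 in treated and from 9.29 to 9.93 in untreated tumours. The part of these cells in the result was not tested.

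Il1rn, the IL-1 receptor antagonist, had 8.08, 8.36 and 8.85 as lowest, median and highest signal in treated grade 3 tumours, against 9.82, 9.38, 10.33 and 10.35 in untreated grade 3 tumours. All 6 treated tumours lay below all 4 untreated ones. The fitted difference was -1.82 (SE 0.40, limma adjusted p = 0.0537), just short of the threshold. Over 35 alternatives the difference ran from -3.22, with sex as a covariate, to -1.37, and the adjusted p from 0.0173 with no mouse term to 1.0 with 1 mean per mouse and group. It passed in 7 of them, among them without 8584T3 (adjusted p = 0.0337), 8688T9 (0.0323) or 8639T4 (0.0403), and missed the threshold without mouse 8629 (0.292) or 8565 (0.108). The value with sex as a covariate rests on 1 tumour, 8639T4, which was the lowest of all 18 for Il1rn. The other 2 probe sets of the gene, both below the array median throughout, differed by -1.23 and -0.94 in plain group means, against -1.53 for the one used. In grade 2, treated tumours had 8.84, 9.89, 7.60 and 9.15, against 9.84, 9.62, 9.23 and 8.68 in untreated tumours. These groups overlapped, with a difference of -0.68 (SE 0.41, limma adjusted p = 0.798). Without 8639T4, the lowest of them and 1 of the 2 tumours with the highest 3′ minus 5′ signal (1.85), it was -0.10, and with sex as a covariate -1.79.

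Il1b, the alarm cytokine itself, had 5.55, 6.12 and 6.57 in treated grade 3 tumours as lowest, median and highest, against 7.11, 8.51, 7.18 and 8.78 in untreated grade 3. The treated values straddled the array median, so this is a low signal. The difference was -1.86 (SE 0.60, limma adjusted p = 0.247). In grade 2, treated tumours had 5.61, 8.48, 6.33 and 6.36, against 7.44, 7.10, 7.73 and 7.64 in untreated. There 3 of the 4 treated tumours lay below every untreated one, and 8688T9 lay above them all. The difference was -0.75 (SE 0.61, limma adjusted p = 0.844). It was -1.29 without 8688T9, -0.40 without 8688T8 and 0.06 with array weights.

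The other tested genes of the IL-1 family did not pass in either grade. Il33, an alarmin kept in the nucleus of alveolar epithelial cells, had 12.08, 12.49, 12.06 and 12.03 in treated grade 2, against 11.68, 11.03, 11.72 and 11.15 in untreated grade 2 tumours. The groups did not overlap, but its adjusted p of 0.438 by limma was above the threshold, with a difference of 0.76 (SE 0.23). In grade 3 it was 0.24 (SE 0.23, limma adjusted p = 0.774). Il18r1, a chain of the IL-18 receptor, was lower without overlap in treated grade 2 tumours, by a fitted -0.41 (SE 0.16, limma adjusted p = 0.619). Il18 differed by 0.51 (SE 0.33, adjusted p = 0.672) in grade 3 and -0.22 (SE 0.34, adjusted p = 0.907) in grade 2, and Il1rap, the shared accessory chain, had a mean signal of 6.31.

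**Figure D2:**
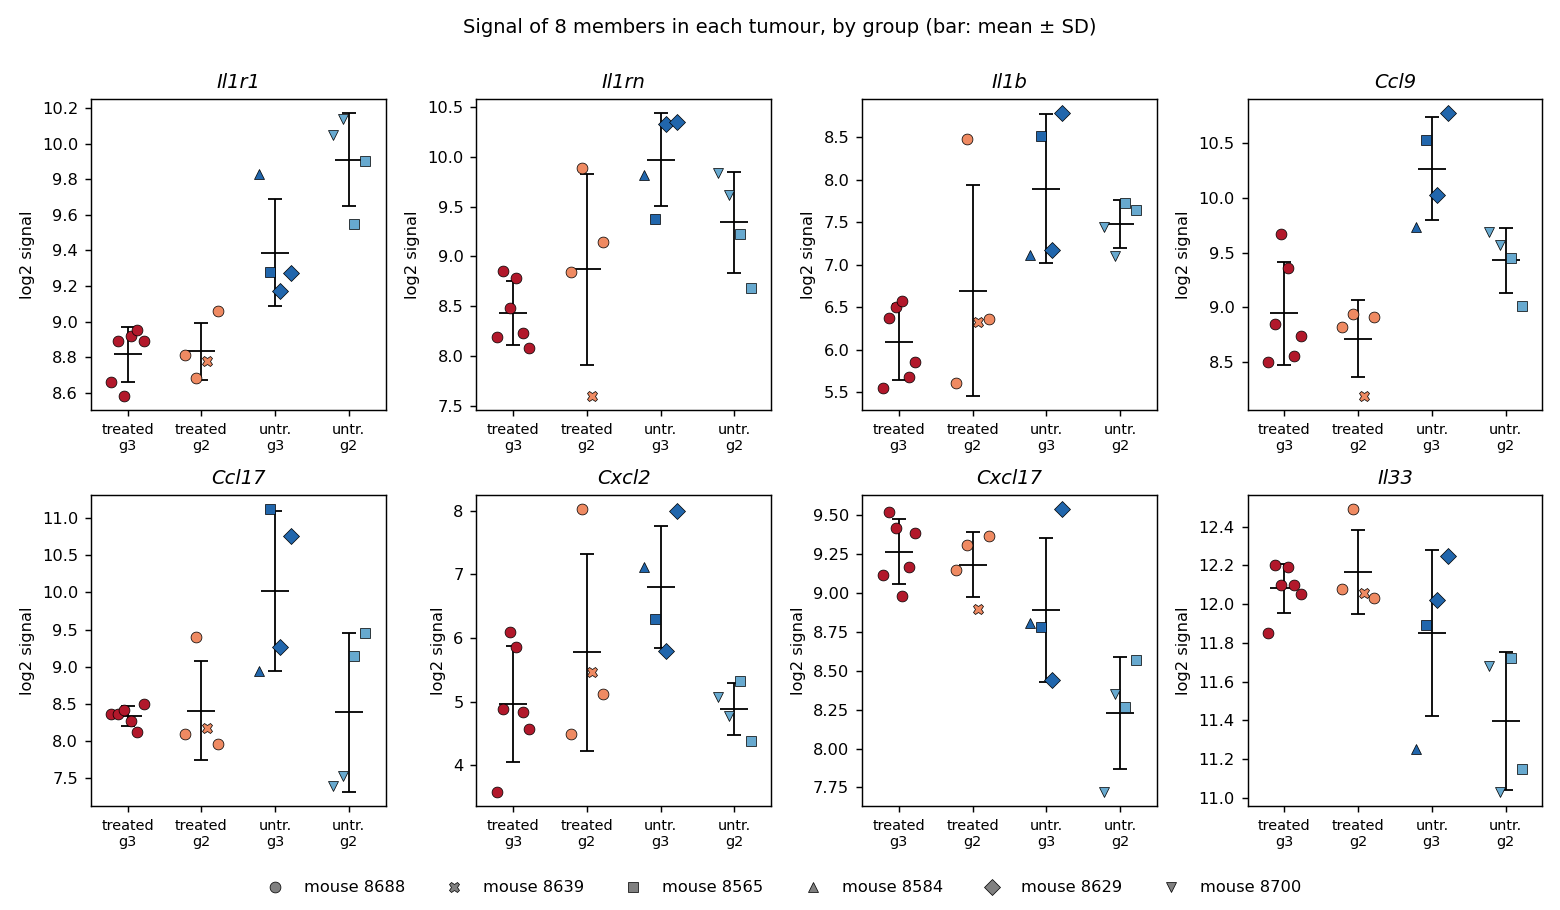
Points give the log2 signal of 8 genes in each tumour (treated and untreated, abbreviated untr., in grade 3, g3, and grade 2, g2), with marker shapes for the mouse and bars for mean ± SD (n = 6 in treated grade 3, n = 4 in the other groups). Il1r1 in all treated tumours lies at or below 9.06 and in all untreated tumours at or above 9.17, while 8688T9 stands high among treated grade 2 tumours for Il1rn, Il1b, Ccl17 and Cxcl2.

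Among CC chemokines, Ccl9 and Ccl17 were the 2 whose groups did not overlap in grade 3. Ccl9, a ligand of Ccr1, had 8.50, 8.80 and 9.67 as lowest, median and highest signal in treated grade 3 tumours, against 9.73, 10.53, 10.03 and 10.77 in untreated grade 3. The groups did not overlap, with a difference of -1.45 (SE 0.33, limma adjusted p = 0.055). Over 35 alternatives the difference ran from -2.03 to -1.27, and the adjusted p from 0.000698 with array weights to 1.0 with 1 mean per mouse and group. It passed in 8 of them, among them without 8584T3 (adjusted p = 0.00767), 8688T3 (0.0375) or 8688T5 (0.0446). It missed the threshold with only the groups compared (0.349), with sex as a covariate (0.202), and without mouse 8565 (0.302) or 8629 (0.211). The second probe set of Ccl9, mostly below the array median, differed by -1.39 in plain group means, against -1.32 for the one used. In grade 2, treated tumours had 8.82, 8.94, 8.19 and 8.91, against 9.69, 9.57, 9.45 and 9.01 in untreated. These did not overlap either, at -0.73 (SE 0.33, limma adjusted p = 0.705).

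Ccl17, a ligand of Ccr4 made by dendritic cells and macrophages, was level in treated grade 3 tumours, at 8.12, 8.37 and 8.50. Untreated grade 3 tumours had 8.94, 11.12, 9.26 and 10.76. The difference was -1.65 (SE 0.53, limma adjusted p = 0.241). In grade 2 the treated tumours had 8.10, 9.40, 8.18 and 7.96 and the untreated 7.40, 7.53, 9.15 and 9.46, a difference of 0.11 (SE 0.54, limma adjusted p = 0.979). The untreated grade 2 tumours split by mouse, with both tumours of 8700 low and both of 8565 high. The sign of this small difference turned with the tumours used, at 0.91 without mouse 8565, -0.61 without mouse 8700 and -0.19 without 8688T9, and with array weights it was 1.04 (limma adjusted p = 0.0492). Ccl8 differed by -1.70 (SE 0.88, limma adjusted p = 0.600) in grade 3 and -1.02 (SE 0.90, adjusted p = 0.851) in grade 2, and lay above the array median on 9 arrays only.

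Among CXC chemokines, Cxcl2 and Cxcl1, both neutrophil attractants that act through Cxcr2, varied widely between tumours of 1 group. Cxcl2 had 3.58, 4.86 and 6.09 in treated grade 3 tumours as lowest, median and highest, against 7.11, 6.30, 5.80 and 7.99 in untreated grade 3. It passed the signal condition on 4 arrays only, and the difference was -1.89 (SE 0.82, limma adjusted p = 0.499). In grade 2 it had 4.49, 8.02, 5.46 and 5.12 in treated tumours and 5.07, 4.78, 5.33 and 4.38 in untreated, where 8688T9 alone stood far above the rest. Cxcl1 ranged from 4.05 in 8688T11 to 9.06 in 8688T3 within treated grade 3 tumours, all of 1 mouse. Its differences were -1.46 (SE 1.16, limma adjusted p = 0.738) in grade 3 and 1.13 (SE 1.19, adjusted p = 0.875) in grade 2.

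Cxcl17, a chemokine of mucosal epithelium, had 9.15, 9.31, 8.90 and 9.37 in treated grade 2, against 7.72, 8.35, 8.27 and 8.57 in untreated grade 2 tumours. The groups did not overlap, at 0.90 (SE 0.26, limma adjusted p = 0.384). It differed by 0.35 (SE 0.26, limma adjusted p = 0.718) in grade 3. Cxcl12, the stromal ligand of Cxcr4, was at -0.99 (SE 0.39, limma adjusted p = 0.610) in grade 2, where fibroblast markers were also lower. A second probe set of Cxcl12 was above the array median on all 18 arrays. Its plain group means differed by -0.63 in grade 2 and 0.0 in grade 3, against -1.01 and -0.52 for the one used. Cxcl16, the ligand of Cxcr6, was the 1 gene with a positive difference and an unadjusted p under 0.05 in grade 3, at 0.41 (SE 0.19, limma adjusted p = 0.561).

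Treated and untreated groups overlapped in both grades for Cxcl9, Cxcl10, Cxcl13, Ccl5, Cxcl14 and Ccl12. Cxcl9, an interferon-inducible ligand of Cxcr3, had 4.25, 5.37 and 6.95 as lowest, median and highest signal in treated grade 3 tumours, against 3.94, 6.47, 4.74 and 3.67 in untreated grade 3. In grade 2 it had 4.74, 6.04, 4.17 and 5.14 in treated tumours, against 6.42, 7.01, 5.53 and 6.36 in untreated. The differences were 0.34 (SE 0.73, limma adjusted p = 0.902) and -1.16 (SE 0.75, adjusted p = 0.820). Cxcl9 lay above the array median on 5 arrays only, among them 8700T1, 8700T3 and 8565T4 of untreated grade 2. It was thus tested largely through the group that was higher in grade 2. Cxcl10, another ligand of Cxcr3, was at 0.25 (SE 0.62, adjusted p = 0.917) in grade 3 and 0.63 (SE 0.63, adjusted p = 0.868) in grade 2. Cxcl13, which draws B cells, lay above the array median on 5 arrays only, and its differences were -0.29 (SE 0.75) and 0.10 (SE 0.77). Ccl5, a T cell attractant, was at 0.30 (SE 0.58, adjusted p = 0.888) and 0.05 (SE 0.59, adjusted p = 0.989). Cxcl14, an epithelial and stromal chemokine, was at 0.53 (SE 0.53, adjusted p = 0.786) and -0.11 (SE 0.55, adjusted p = 0.979), and Ccl12 at 0.55 (SE 0.47, adjusted p = 0.747) and 0.28 (SE 0.48, adjusted p = 0.913). A second probe set of Cxcl14 was above the array median on all 18 arrays. Its plain group means differed by 0.01 in grade 3 and -0.79 in grade 2, against 0.47 and -0.27 for the one used. Cxcl1 had the widest range of the 38 genes over the 18 tumours, at 6.17 log2 units, then Cxcl2 at 4.44 and Ccl8 at 4.09.

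**Figure D3:**
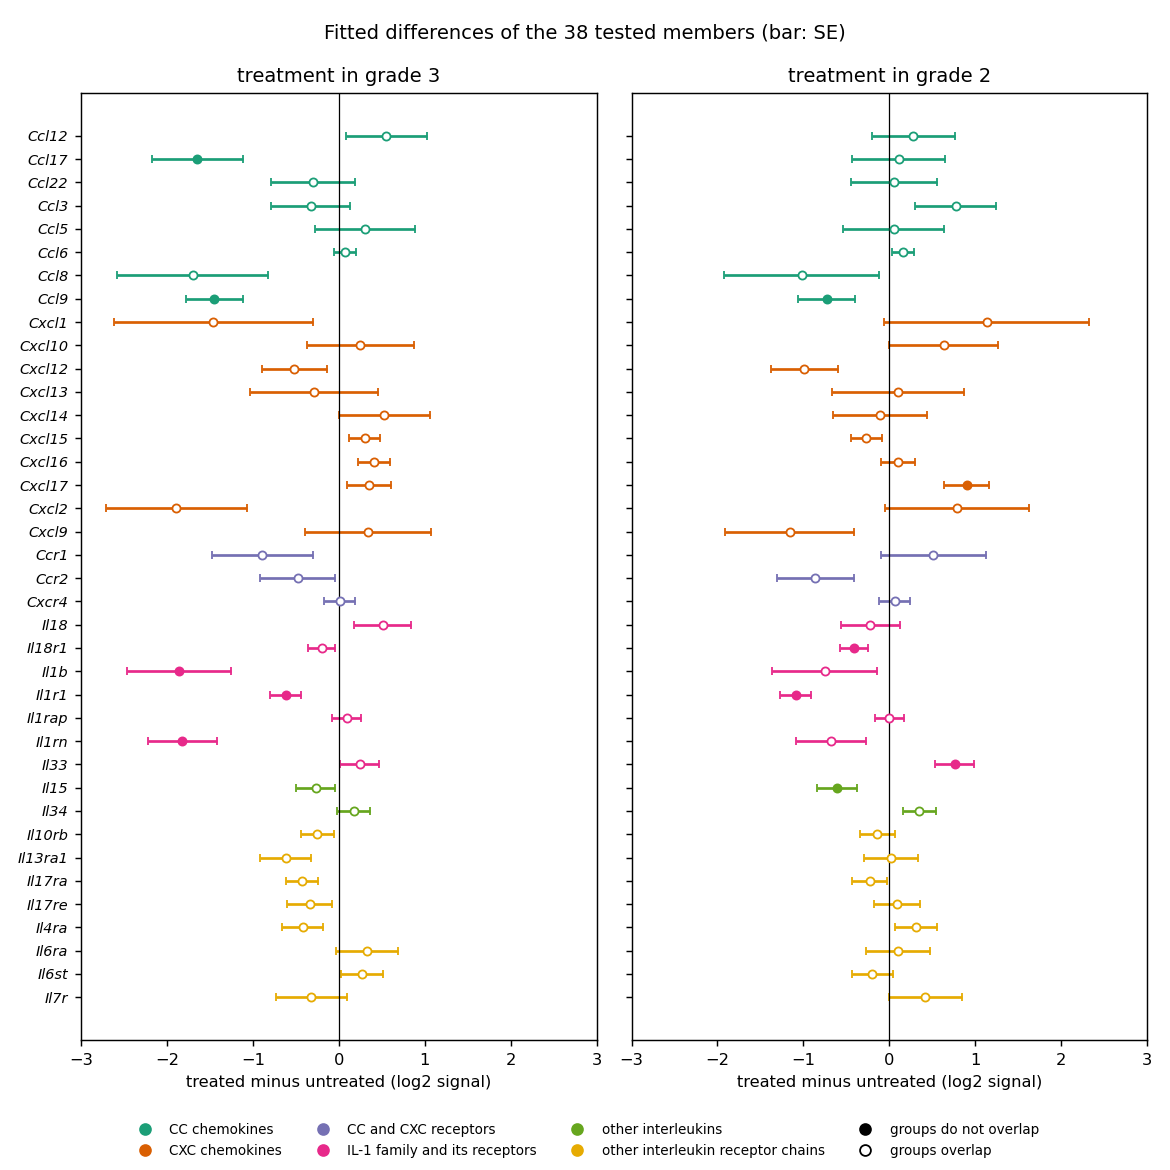
Points give the fitted difference, treated minus untreated in log2 signal, of the 38 tested genes in grade 3 (left) and grade 2 (right), with bars for the SE and colours for the role. Filled points mark genes whose groups do not overlap: 5 on the left, all below 0, and 6 on the right, 2 above and 4 below.

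None of the 3 tested chemokine receptors passed in either grade. Cxcr4 differed by 0.01 (SE 0.18, limma adjusted p = 0.991) in grade 3 and 0.06 (SE 0.18, adjusted p = 0.958) in grade 2. Ccr2, the receptor that brings monocytes from blood, was at -0.48 (SE 0.44, limma adjusted p = 0.769) in grade 3 and -0.86 (SE 0.45, adjusted p = 0.761) in grade 2. Ccr1, the receptor of Ccl9, was at -0.89 (SE 0.59, limma adjusted p = 0.681) in grade 3 and 0.51 (SE 0.61, adjusted p = 0.887) in grade 2. Of the remaining interleukins and chains, Il17ra differed by -0.43 (SE 0.19, limma adjusted p = 0.511) in grade 3. Il15, which sustains natural killer cells, was lower without overlap in treated grade 2 tumours, at -0.61 (SE 0.23, limma adjusted p = 0.566). Il34, a ligand of the macrophage receptor Csf1r, differed by 0.17 (SE 0.19, adjusted p = 0.804) in grade 3 and 0.35 (SE 0.19, adjusted p = 0.764) in grade 2. Il13ra1, a chain of the IL-13 receptor, was at -0.62 (SE 0.30, limma adjusted p = 0.582) in grade 3 and 0.02 (SE 0.31, adjusted p = 0.992) in grade 2. Il10rb, Il17re and Il6ra had differences between -0.34 and 0.33 in both grades. Il7r, the IL-7 receptor chain of lymphocytes, was above the array median in every tumour and ranged from 8.64 to 10.30.

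In grade 2, 1 of the 38 genes passed, against 0.0685% of all genes. At an unadjusted p under 0.05 there were 7 (2 higher and 5 lower), 18.4% against 6.99% of all genes. Without overlap, 2 were higher (Cxcl17 and Il33), against 4.04% of all genes, and 4 lower (Il1r1, Ccl9, Il15 and Il18r1), also against 4.04%. The median difference was 0.05 over the 38 and 0.02 over all genes.

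The promoters of genes that were lower together in grade 3, and of the pair Cxcl1 and Cxcl2, are shown so that their letters can be read beside the values. NF-kB and AP-1 are textbook regulators of inflammatory genes. Of the 38 tested genes, 31 had a promoter in the RefSeq table (GRCm38.p6). The 150 bases before each start are given 5′ to 3′, with capitals for matches on either strand to an NF-kB motif, GGNNTTTCC, and an AP-1 motif, TGANTCA. Il1r1 has 2 annotated starts, and Il1rn a further start whose window overlaps the downstream one shown.
Il1r1, upstream start (chr1:40224930-40225079, plus strand): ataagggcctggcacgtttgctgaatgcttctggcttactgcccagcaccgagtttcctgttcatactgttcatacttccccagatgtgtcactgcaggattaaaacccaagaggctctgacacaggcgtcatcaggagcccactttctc
Il1r1, downstream start (chr1:40266436-40266585, plus strand): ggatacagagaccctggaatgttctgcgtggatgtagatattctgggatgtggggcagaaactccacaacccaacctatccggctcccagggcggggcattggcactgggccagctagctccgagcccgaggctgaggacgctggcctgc
Il1rn, upstream start (chr2:24336710-24336859, plus strand): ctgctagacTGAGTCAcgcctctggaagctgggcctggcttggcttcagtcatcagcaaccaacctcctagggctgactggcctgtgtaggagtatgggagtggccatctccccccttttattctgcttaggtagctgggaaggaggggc
Il1rn, downstream start (chr2:24345221-24345370, plus strand): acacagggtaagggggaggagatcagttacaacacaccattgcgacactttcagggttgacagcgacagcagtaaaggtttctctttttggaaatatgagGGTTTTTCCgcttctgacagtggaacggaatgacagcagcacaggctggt
Il1b (chr2:129371140-129371289, minus strand): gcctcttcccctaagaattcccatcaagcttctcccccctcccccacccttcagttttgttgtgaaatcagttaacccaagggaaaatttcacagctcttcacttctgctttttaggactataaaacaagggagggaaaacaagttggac
Ccl9 (chr11:83578637-83578786, minus strand): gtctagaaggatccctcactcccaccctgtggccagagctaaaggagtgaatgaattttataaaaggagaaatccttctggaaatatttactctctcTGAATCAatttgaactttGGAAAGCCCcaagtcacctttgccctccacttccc
Ccl17 (chr8:94810303-94810452, plus strand): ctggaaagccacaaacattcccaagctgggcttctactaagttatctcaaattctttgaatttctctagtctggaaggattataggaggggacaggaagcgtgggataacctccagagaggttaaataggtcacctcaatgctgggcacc
Cxcl1 (chr5:90891095-90891244, plus strand): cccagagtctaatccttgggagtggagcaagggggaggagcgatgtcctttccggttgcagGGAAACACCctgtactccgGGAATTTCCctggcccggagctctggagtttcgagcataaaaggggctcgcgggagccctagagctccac
Cxcl2 (chr5:90903749-90903898, plus strand): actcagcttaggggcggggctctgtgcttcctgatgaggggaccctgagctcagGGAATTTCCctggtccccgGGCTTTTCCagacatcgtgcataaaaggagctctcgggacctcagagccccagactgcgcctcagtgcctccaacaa
Cxcl1 and Cxcl2, neighbours on chromosome 5, each hold 2 NF-kB matches, and both contain the run GGAATTTCC. Ccl9 holds 1 match to each motif. Il1rn holds an AP-1 match before its upstream start and an NF-kB match before its downstream start. No match to these letters lies in the windows of Il1r1, Il1b or Ccl17. Over all 32475 promoters of this length, 3.12% hold the NF-kB letters and 4.23% the AP-1 letters. Over the 31 tested genes, counting any of their starts, 16.1% hold the NF-kB letters and 9.68% the AP-1 letters. A p53 half-site was found in 4.03% of all promoters and in 3 of the 31 genes. The shares over all promoters count each promoter, and those over genes any start of a gene, so they are unlike measures. These matches describe letters and show no binding.

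The next question was whether the treatment difference itself differed between grades. None of the 38 genes passed, as none of the 7300 did (0% called), and 6 had an unadjusted p under 0.05, 15.8% against 9.11% of all genes. The grade 3 difference minus the grade 2 difference was -1.76 (SE 0.61) for Ccl17, -2.68 (SE 0.96) for Cxcl2, -1.14 (SE 0.47) for Il1rn and -0.73 (SE 0.28) for Il4ra. It was 0.57 (SE 0.21) for Cxcl15 and 0.47 (SE 0.21) for Il1r1, all 6 with a limma adjusted p of 0.539. Cxcl2 met the signal condition largely in untreated grade 3 tumours, a group that enters this difference. The median was -0.19 over the 38 genes and 0.02 over all genes.

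Among untreated tumours, grade 3 and grade 2 differed most in some of the same genes, and these comparisons share the untreated tumours with those of treatment. None of the 38 passed, against 0.178% of all genes, and 13 had an unadjusted p under 0.05 (8 higher and 5 lower in grade 3), 34.2% against 12.5% of all genes. Without overlap, 4 were higher in grade 3 (Ccl9, Cxcl2, Il17re and Il4ra), 10.5% against 3.42%, and none lower, against 3.03%. Cxcl2 met the signal condition only in 8584T3, 8565T1 and 8629T12, all of untreated grade 3, and in 8688T9. It was thus tested largely through the group in which it is counted as higher. Ccl17 was at 1.66 (SE 0.48, limma adjusted p = 0.182). Il4ra, the receptor chain of IL-4 and IL-13, had 9.48, 8.88, 8.81 and 9.80 in untreated grade 3, against 8.71, 8.80, 8.14 and 8.27 in untreated grade 2, a difference of 0.75 (SE 0.22, limma adjusted p = 0.182). Ccl9 was at 0.89 (SE 0.30, adjusted p = 0.238), Cxcl2 at 1.84 (SE 0.75, adjusted p = 0.327) and Cxcl17 at 0.61 (SE 0.23, adjusted p = 0.3). Il1r1 was at -0.49 (SE 0.16, limma adjusted p = 0.233), and Cxcl15 at -0.42 (SE 0.16, adjusted p = 0.303).

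Among treated tumours, mostly of mouse 8688, none of the 38 passed, nor did any of the 7300 (0% called). None had an unadjusted p under 0.05, against 1.93% of all genes. The 6 smallest unadjusted p-values belonged to Il1rn at -0.58 (SE 0.30), Cxcl10 at -0.83 (SE 0.45), Ccr1 at -0.72 (SE 0.44), Il1b at -0.64 (SE 0.44), Cxcl1 at -1.25 (SE 0.85) and Il13ra1 at -0.31 (SE 0.22), all with a limma adjusted p of 0.997. Without 8688T9 the differences were -0.23 for Il1rn, -0.80 for Cxcl10, -0.17 for Ccr1, 0.03 for Il1b, -0.73 for Cxcl1 and -0.19 for Il13ra1.

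Tumours can be averaged within mice, whatever their grade. The means of both treated mice then lay below those of all 4 untreated mice for 6 of the 38 genes, against 4.78% of all genes, and above them for 1, Ccl6, against 7.4%. The 6 were Ccl8, Ccl9, Il17ra, Il1b, Il1r1 and Il1rn. Il1r1 averaged 8.83 in mouse 8688 and 8.78 in mouse 8639, against 9.57, 9.83, 9.22 and 10.09 in the untreated mice 8565, 8584, 8629 and 8700. Il1rn averaged 8.72 and 7.60 in the treated mice, against 9.10, 9.82, 10.34 and 9.73 in the untreated mice in the same order. Il1b averaged 6.33 in each treated mouse, against 7.96, 7.11, 7.98 and 7.27. Mouse 8639 is represented by 1 tumour.

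**Figure D4:**
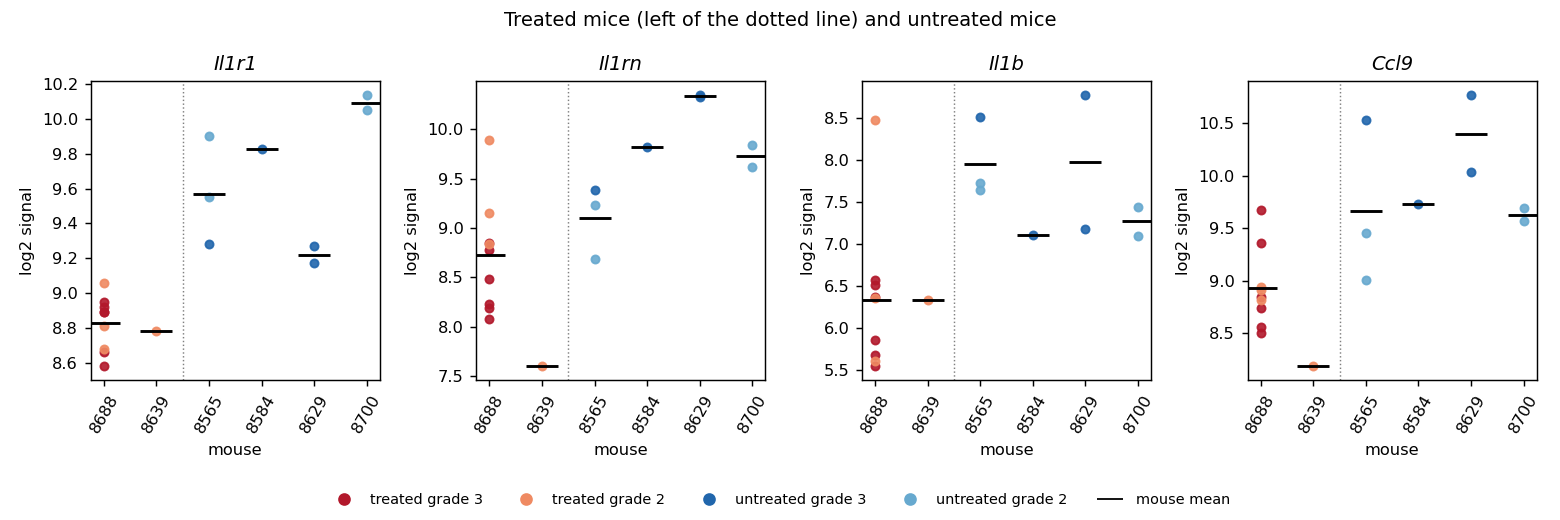
Points give the log2 signal of Il1r1, Il1rn, Il1b and Ccl9 in each tumour by mouse, coloured by group, and black bars the mouse means, with treated mice 8688 and 8639 left of the dotted line. For Il1r1 both treated means (8.83 and 8.78) lie under the lowest untreated mean (9.22), and the single tumour 8639T4 is the lowest of all 18 for Il1rn and Ccl9.

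The tumour with the highest signal of its group differed by gene. 8688T9 was the highest treated grade 2 tumour for 23 of the 38 genes (60.5%), against 17.2% of all genes tested. Among untreated grade 3 tumours, 8629T12 was highest for 16 and 8565T1 for 12 of the 38 (42.1% and 31.6%), against 26.8% and 18.3% of all genes. 8688T11 was highest for 13 in treated grade 3 (34.2%, against 17.8%), and 8565T4 for 15 in untreated grade 2 (39.5%, against 30.6%). At least 1 log2 unit above their mean over all tumours lay 8 genes in 8688T9, 11 in 8629T12, 9 in 8565T1 and 6 in 8565T4, against 0 to 2 in the other 14 tumours. The share of all genes above this cut was not counted. The 38 also ranged more widely than all genes (medians of 1.84 and 0.93 log2 units), so these counts describe the 38 only. 8688T9 had 9.69 for Cxcl1, 8.02 for Cxcl2, 8.12 for Ccl3 and 8.29 for Ccr1, and 8629T12 had 10.22, 7.99, 8.72 and 8.41 for the same genes. 8565T1 had 11.12 for Ccl17, close to 10.76 in 8629T12, with 9.40 in 8688T9. It differed from both in Ccl22, the other ligand of Ccr4, at 9.24 against 6.49 in 8629T12 and 7.39 in 8688T9. Ccr2 was 9.29 in 8565T1, against 7.58 in each of them. The grade 2 tumours of the same mouse, 8565T3 and 8565T4, had 8.95 and 9.03 for Ccr2.

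Some leukocyte marker lists were high in these tumours and others were not. The mean over the 3 tested neutrophil markers of 14 listed (S100a8, S100a9 and Cd177) was 10.18 in 8688T9, the highest treated grade 2 tumour. It was 10.66 in 8629T12 and 9.79 in 8584T3, both untreated grade 3, and from 7.28 to 9.76 in the other tumours, with 8.58 in 8565T1. Of the other listed neutrophil markers, Camp, Csf3r, Cxcr2, Elane, Ltf, Mmp8, Mmp9, Mpo and Ngp were silent, and Csf3r did not exceed 5.72 in any tumour. The mean over the 4 tested dendritic cell markers of 12 listed, 1 of them Ccl22 itself, was 8.46 in 8565T1 and 8.36 and 8.57 in the grade 2 tumours of the same mouse. In the other tumours it was 6.84 to 7.32. The mean over 7 tested T and NK cell markers was 6.99 in 8688T9, 5.63 in 8629T12 and 7.03 in 8565T1, in a range of 5.46 to 7.26 over all tumours. The mean over 6 B and plasma cell markers was 9.10, 9.46 and 10.17 in the same tumours, in a range of 8.21 to 10.17. The mean over 14 macrophage markers was level, at 9.49 to 9.90 in treated grade 3, 9.41 to 9.72 in treated grade 2, 9.43 to 9.75 in untreated grade 3 and 9.56 to 9.87 in untreated grade 2. No marker on any of the 10 cell type lists passed for treatment in either grade, while 2 passed between grades of untreated tumours. Cd177 was higher in grade 3 by 4.03 (SE 0.78, limma adjusted p = 0.0418), and Fbln1, a fibroblast matrix gene, was lower at -1.95 (SE 0.35, limma adjusted p = 0.0248). Of the 3 neutrophil markers, 2 lay above 0 and 1 below in that comparison, with a median of 0.17. Cd177 was the only 1 of the 3 at an unadjusted p under 0.05, so their mean leans on Cd177. All 12 endothelial markers lay below 0 in that comparison, with a median of -0.44 and 5 at an unadjusted p under 0.05. Of all 7300 genes tested, 3659 lay below 0 there, 12.5% had an unadjusted p under 0.05 and 0.178% passed. The part of any of these cells in the differences of Il1b, Il1rn, Ccl9 or Ccl17 was not tested.

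**Figure D5:**
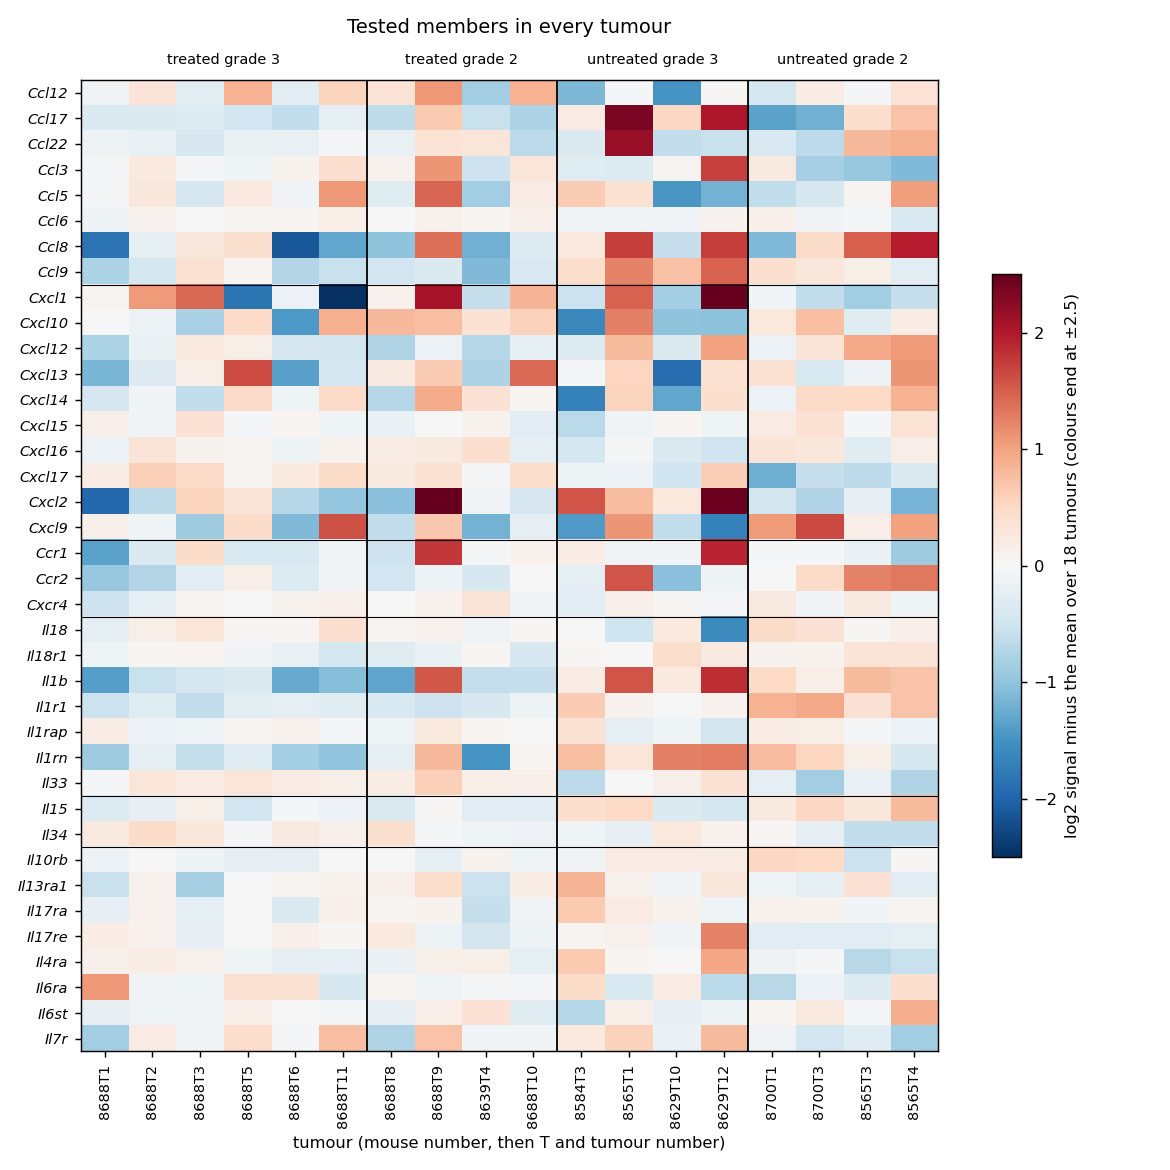
Each cell gives the log2 signal of a gene (rows, by role) in a tumour (columns, by group) minus its mean over the 18 tumours, red above and blue below, with colours ending at ±2.5. The columns of 8688T9, 8629T12, 8565T1 and 8565T4 hold most of the strong reds, and the row of Il1r1 is blue in all 10 treated tumours.

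The 4 lists of related genes that were drawn up gave no call in any of the 5 comparisons. In grade 3, of 9 tested chemokine-related genes outside the name rule, 6 lay above and 3 below 0, and Fpr2, a receptor for formyl peptides on myeloid cells, was at -0.93 (SE 0.27, limma adjusted p = 0.151). Of 20 related cytokines and receptors, 14 lay below 0, with a median of -0.04. Among them Csf2rb, the shared chain of the GM-CSF, IL-3 and IL-5 receptors, was at -0.86 (SE 0.28, limma adjusted p = 0.253). Of 19 genes of IL-1 receptor, Toll-like and NF-kB signalling, 14 lay below 0, with a median of -0.06. Of 16 JAK-STAT and SOCS genes, 9 lay below 0, with a median of -0.04. Of all 7300 genes tested, 3146 lay below 0 in grade 3, with a median of 0.04. In grade 2 the medians of the 4 lists ran from -0.19 to 0.03. Between grades of untreated tumours, Tslp, an epithelial cytokine, was at -1.06 (SE 0.26, limma adjusted p = 0.123) and Rarres2, which encodes chemerin, at -0.86 (SE 0.23, limma adjusted p = 0.155).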

How the data were processed

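RNA from 18 microdissected mouse lung tumours (100 ng each) was amplified, biotin-labelled and put on arrays of 1 colour, per the labels' protocols. Signals on a log2 scale were deposited by the authors; the submitters' processing notes name GCRMA (2.20.0) and R (2.11.0). The sources used here name no scan date or batch. Array medians lay between 6.05 and 6.18, so an overall shift in RNA between tumours would not show in these values. Of 22690 probe sets, 20380 had 1 gene symbol, 691 several, 1555 none and 64 were controls. Only the first kind was used, and 3 probe sets with several symbols that match the name rule were left out.

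limma 3.58.1 in R 4.3.3 fitted 4 group means to all 18 tumours and 7300 genes, with the mouse as a random block (correlation 0.259), and p-values were adjusted by Benjamini-Hochberg over all genes, two-sided, at a threshold of 0.05. Because the fit weights tumours by that correlation, a fitted difference need not equal the plain one between means. The steps were checked on data with known answers. Nothing says that tumours of a mouse are independent. Tumour numbers pair nothing across groups.

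The genes and lists were chosen with earlier results of these data known. Genes were named by a rule: those that passed, the 6 smallest p-values per comparison, groups without overlap and a difference of at least 1, and the 2 highest mean signals per role, with all silent genes listed. The remaining tested genes were named to account for all 38, after their values were seen. Alternatives were other mouse terms, a term for sex, a fit to only the groups in question, other normalisations, filters, probe set choices and spread models, array weights, and leaving out tumours. The term for sex rests on 8639T4 against mouse 8688 within treated grade 2, so it cannot separate sex from that tumour.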

Additional observations from a re-analysis of the deposited data

Results flagged for a closer look

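In 9 of 152 groups (38 genes in 4 groups), 1 tumour stood farther from its neighbour than Dixon's critical value allows, which is 5.92% where chance gives about 1 in 20. Ccl17 in 8688T9 (treated grade 2) was 9.40, with the next tumour at 8.18. Il33 in the same tumour was 12.49, with the next at 12.08. Ccl9 in 8639T4 (treated grade 2) was the lowest at 8.19, with the next at 8.82. In untreated grade 3, 8629T12 was the highest for Ccr1 at 8.41 (next 6.70), Il17re at 8.11 (next 6.97) and Ccl6 at 12.65 (next 12.49). Ccl22 in 8565T1 was 9.24 (next 6.69), Il1r1 in 8584T3 was 9.83 (next 9.28), and Il10rb in 8584T3 was the lowest at 8.97 (next 9.23).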

How the results depend on the processing

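For treatment in grade 3, 0 of the 38 genes passed; 5 did with no mouse term (Il1rn, Ccl9, Il1r1, Ccl17 and Il1b), 1 with sex as a covariate (Il1rn), 1 when probe sets of a gene were averaged (Ccl9), 4 with array weights (Ccl17, Ccl9, Il1b and Il1rn), 1 without 8688T3 and 8639T4 (Ccl9), 3 without mouse 8584 (Ccl17, Ccl9 and Il1rn), and 0 to 3 without single tumours (3 without 8584T3). For treatment in grade 2, 1 passed (Il1r1); 2 did with no mouse term, 0 with sex as a covariate, 0 with 1 mean per mouse and group, 13 with array weights (Ccl17, Ccl3, Cxcl2, Cxcl17, Il33 and Il13ra1 higher, Ccl9, Cxcl12, Cxcl15, Il10rb, Il15, Il18r1 and Il1r1 lower), 0 without 8688T3 and 8639T4, 0 without mouse 8565, 0 without mouse 8700, and 0 or 1 without single tumours. The interaction gave 0, and 3 with array weights; grade in untreated tumours gave 0, and 8 with array weights; grade in treated tumours gave 0 throughout. The cause was not tested. Il1b between grades of treated tumours reversed to 0.03 without 8688T9, in a range of -1.08 to 0.03 over single tumours left out. Of the other differences of genes named by the rule in their own comparison, 1042 were unchanged in call and direction, 34 passed that had not, and 10 no longer did. Over all 38 genes the sign turned in at least 1 alternative for 13 in grade 3, 16 in grade 2, 12 in the interaction, 15 between untreated and 20 between treated grades. Of those at least 0.5 from 0, the sign turned for Ccl12 in grade 3 (-0.80 with sex as a covariate), Il1b in grade 2 (0.06 with array weights), Ccl8 in the interaction (0.04 without mouse 8700), Ccr2 and Cxcl9 between untreated grades (0.30 and 0.53 with mouse as a fixed block), and Cxcl2 and Il1b between treated grades (0.01 and 0.03 without 8688T9). Leaving out 8688T3 with 8639T4 or a whole mouse was chosen after seeing the data. Grades were compared within mice, with mouse as a fixed block, and 0 of the 38 passed in untreated or treated tumours. Only mouse 8565 had untreated tumours of both grades (8565T1 against 8565T3 and 8565T4), and only mouse 8688 had treated ones. Each of these comparisons thus rests on 1 mouse and can decide little. The interaction needs all 4 groups. No paired analysis was possible because, for treatment, no mouse has tumours in both groups, and tumour numbers pair no tumours.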
